A study of Mus musculus with 16 samples.

Results

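The genes described here are 9 let-7 targets of growth signalling: the Ras GTPases Nras and Hras1 (now Hras), the transcription factors Myc and Mycn, the receptors Igf1r and Insr with their adaptor Irs2, and the receptors Tgfbr1 and Acvr1c. They were chosen by name, as genes known as targets of let-7, and every probe of the array that carries one of these names or an older synonym was taken, 19 of 55681 probes. Of the 9 genes, 8 were among the 18246 genes that could be tested, and Acvr1c was well above background on 0 of the 16 arrays. Levels were measured in P19 cells, a mouse embryonal carcinoma line, transfected with a control, with a let-7a mimic, with siSfpq, a pool of 4 siRNAs against the RNA-binding protein gene Sfpq, or with the mimic and siSfpq together (let-7a + siSfpq). Each reagent was given at 24 nM, and the RNA was taken 48 h later, at the single time point of the series. What the control transfection of the arrays contained is not given in the sources used here.

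The let-7 microRNAs are loaded into Argonaute proteins and pair through their seed with sites in messenger RNAs, mostly in the 3′UTR, which lowers translation and messenger RNA stability. The family accumulates as stem cells differentiate, and is known for holding down Ras, Myc and insulin and IGF receptor signalling, which drive growth in undifferentiated and tumour cells. Sfpq is a nuclear paraspeckle protein that the study examined for a part in the choice of let-7a targets, so that the question for each gene is how its level moved with the mimic, with the loss of Sfpq, and with both.

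The sequences that define these targets are the mature let-7 RNAs themselves, taken from RefSeq (GRCm38.p6) with the seed, bases 2 to 8, in capitals. The mimic is named after the first of them, which lies at chr13:48538239-48538260 on the minus strand, and the other 3 show how far family members with the same seed differ outside it.
let-7a-5p: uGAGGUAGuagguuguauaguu
let-7b-5p: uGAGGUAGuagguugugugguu
let-7g-5p: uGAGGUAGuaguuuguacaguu
miR-98-5p: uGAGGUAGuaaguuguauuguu
These RNAs share the capital letters, and let-7b-5p, let-7g-5p and miR-98-5p each differ from let-7a-5p at 2 of the 22 bases. The 7 letters that pair with the seed, CTACCTC, were found on the strand of the probe in 204 of the 55681 probe sequences of the array (0.366%) and in 0 of the 19 probes of the 9 genes, which says only that these letters are not in the 60 bases that each probe reads.

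Expression was measured on 16 arrays, 4 per condition, with 33733 to 38464 of 59305 spots well above background. Levels are given below as log2 of the background-corrected intensity, quantile normalized between arrays, and can be compared between conditions for 1 gene but not between genes. Arrays 1 and 2 of a condition differed by a median of 0.06 to 0.07 on the log2 scale, as did spots of the same probe on 1 array, so that their mean was used as 1 sample and each condition had 3. The methods speak of 3 replicates of transfected cells, but the labels do not say which of the 4 arrays per condition came from separate cultures, so that p-values measure the spread between these samples, which may be technical. The slide of arrays 1 and 2 and that of arrays 3 and 4 each held every condition, but each condition had its own row on the slide, so that condition and row cannot be told apart.

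Sfpq itself was at 12.07, 11.98 and 11.98 in the control (the mean of replicates 1 and 2, then replicate 3, then replicate 4, the order kept for all values of samples), and at 10.55, 11.46 and 10.62 in siSfpq. It was at 11.31, 11.49 and 11.41 in let-7a + siSfpq. The siSfpq samples thus lay below the control samples in each replicate, with the smallest difference in replicate 3, where Sfpq fell by 0.52 against 1.52 and 1.36 in the others. Over the 3 samples Sfpq fell by 1.13 with siSfpq (SE 0.19, adjusted p = 0.00734 by limma), to 45.6% of the control, while its difference between let-7a + siSfpq and control was -0.61 (SE 0.19, adjusted p = 0.182). The siSfpq sample of replicate 3 also stood apart from the other siSfpq samples in several of the genes below. Without that sample Sfpq differed by -1.42 between siSfpq and control (adjusted p = 1.06e-05).

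Of the markers fixed for undifferentiated embryonal carcinoma cells, 9 of 10 could be tested, and Zfp42 failed the background limit on some array of each condition. Their mean level was 10.49 to 10.67 in control, 10.04 to 10.52 in let-7a, 10.73 to 10.77 in siSfpq and 10.54 to 10.56 in let-7a + siSfpq, with 3 of 9 called lower with let-7a (2.07% of all genes), and 2 called higher and 1 lower with siSfpq (6.30% and 7.36%). Lin28a, among the markers called lower with let-7a, is itself a known let-7 target. The mean of 10 neuronal markers was 9.28 to 9.79 in control, 10.45 to 11.25 in let-7a, 8.50 to 8.55 in siSfpq and 9.57 to 9.83 in let-7a + siSfpq, with 8 of 10 called higher with let-7a and 7 of 10 called lower with siSfpq, where 4.93% and 7.36% of all genes were. Neurod1 was not well above background on all arrays of control or of siSfpq, nor Neurog2 on those of siSfpq. Neurod1 thus passed the background limit only through the conditions with let-7a. The mean of 6 of the 8 mesendoderm markers was 6.75 to 6.95 in control, 6.20 to 6.75 in let-7a, 7.44 to 8.13 in siSfpq and 6.79 to 7.54 in let-7a + siSfpq, with 2 of 6 called lower with let-7a and 1 of 6 called higher with siSfpq (2.07% and 6.30% of all genes). Mixl1 and Sox17 were not well above background on all arrays of any condition, nor Foxa2 and Gata4 outside siSfpq. Foxa2 and Gata4 thus entered the mean and the counts only through siSfpq, so that the higher mean there rests in part on this choice. With let-7a + siSfpq against siSfpq, 6 of 10 neuronal markers were called higher (6.20% of all genes). There 2 of 9 embryonal carcinoma and 2 of 6 mesendoderm markers were called lower (4.14%). Against let-7a, 7 of 10 neuronal markers were called lower (2.21%), and 2 of 9 and 3 of 6 of the other lists higher (0.965%). In both, 0 were called the other way. Against control, 1 of 9 embryonal carcinoma markers was called, as lower (0.247%), and 0 of the other lists. The neuronal markers were thus called most often with let-7a and with siSfpq, and the part of all 3 lists in the changes of the genes below was not tested. In RNA of whole cultures, fewer cells that express a gene and less of its RNA per cell cannot be told apart.

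Among the 8 tested genes, Myc passed the test with let-7a, and Mycn and Igf1r passed it with siSfpq. With let-7a against control, 1 of 8 genes fell (Myc), where 2.07% of all genes tested fell, and 0 rose, where 4.93% of all genes rose. With siSfpq against control, 2 of 8 fell (Mycn and Igf1r), where 7.36% of all genes fell, and 0 rose, where 6.30% did. The median change of the 8 genes was close to 0 with let-7a (-0.0042) and -0.17 in the comparison of siSfpq and control, beside medians of -0.04 and 0.01 over all genes.

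When let-7a was added to siSfpq, that is, in let-7a + siSfpq against siSfpq, Myc fell and Igf1r rose, 1 gene each way, where 4.14% of all genes fell and 6.20% rose. With let-7a + siSfpq against control, 0 of 8 genes passed in either direction, nor did any at an unadjusted p under 0.05, and over all genes 1.30% rose and 0.247% fell. At an unadjusted p under 0.05 there were 2156 of 18246 genes. With let-7a + siSfpq against let-7a, 0 of 8 passed (1 of 8 at an unadjusted p under 0.05, beside 3006 of 18246 genes), and over all genes 0.965% rose and 2.21% fell. The interaction, which is the change with let-7a in the presence of siSfpq minus that in its absence, was not called by limma for any gene of the array (0% in either direction, 1160 of 18246 genes at an unadjusted p under 0.05), and 0 of the 8 genes had an unadjusted p under 0.05 there. These comparisons share samples: the control samples enter every comparison against control, and the siSfpq samples enter with opposite signs the comparisons siSfpq against control and let-7a + siSfpq against siSfpq.

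Samples with the same replicate number deviated together, and with the replicate as a block more genes passed over the whole array. The block brought the count of members to 2 of 8 with let-7a (21.7% of all genes), to 3 of 8 with siSfpq (37.8%) and to 4 of 8 with let-7a + siSfpq against siSfpq (33.4%). It left 0 of 8 with let-7a + siSfpq against control (8.17% of all genes) and against let-7a (13.2%), and 0 of 8 in the interaction (0.0219%). The genes it added were Irs2 with let-7a, with siSfpq and with let-7a + siSfpq against siSfpq, and Mycn in the last of these, and their values follow below.

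The fit without replicate 3, on 2 samples per condition, called far more genes over the whole array. With let-7a it called 2 of 8 members, Myc and Hras, both lower, where 30.2% of all genes were called in either direction. With siSfpq it called 3 of 8, Mycn and Igf1r lower and Myc higher, beside 49.3% of all genes. With let-7a + siSfpq against control Mycn and Nras were called lower (18.4% of all genes), and against let-7a Myc was called higher and Mycn lower (26.8%). Against siSfpq it called Igf1r, Irs2 and Mycn higher and Myc and Nras lower (47.3%), and in the interaction Igf1r and Mycn higher (22.5%).

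**Figure D1:**
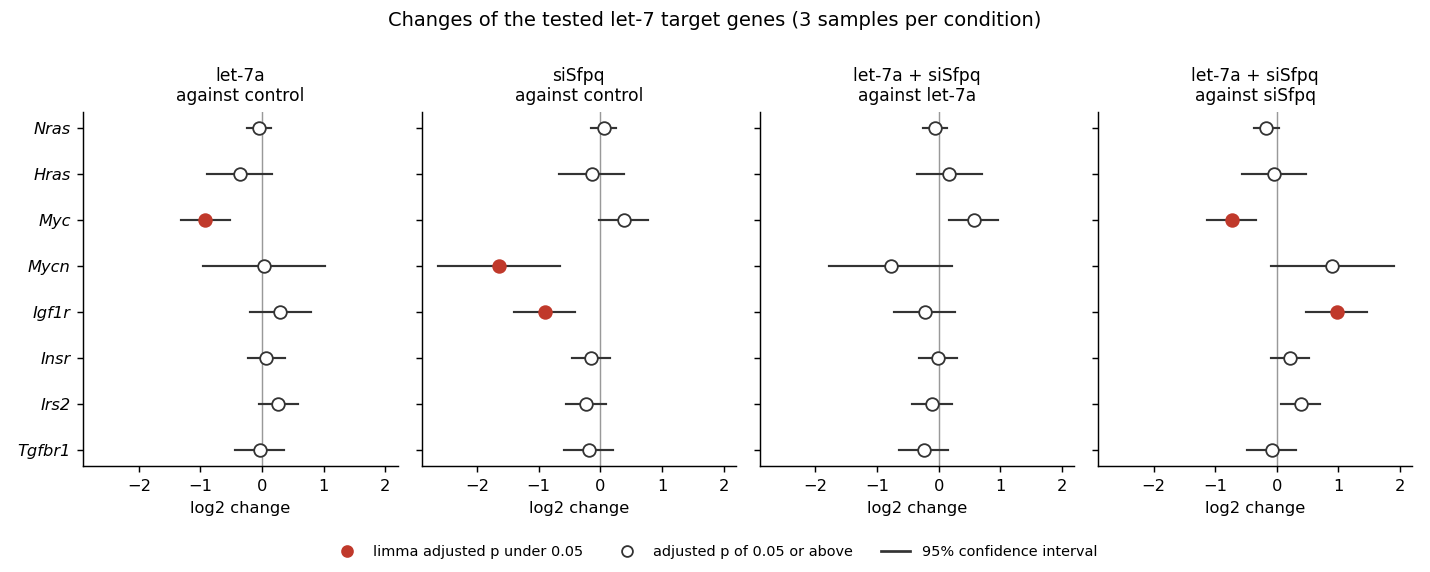
Log2 change (x axis) of each of the 8 tested genes (y axis) in 4 comparisons, 3 samples per condition, with points for the limma estimate, lines for its 95% confidence interval and filled points where the adjusted p was under 0.05. The filled points are Myc at -0.92 with let-7a and at -0.73 with let-7a + siSfpq against siSfpq, Mycn at -1.65 and Igf1r at -0.90 with siSfpq, and Igf1r at 0.97 with let-7a + siSfpq against siSfpq.

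Nras, a GTPase that passes signals from growth factor receptors to the MAP kinase cascade, was read by 3 probes and passed the test in no comparison over 3 samples per condition. It was at 11.35, 11.32 and 11.33 in the control and at 11.27, 11.31 and 11.26 with let-7a. It was at 11.45, 11.29 and 11.43 with siSfpq and at 11.13, 11.36 and 11.17 with let-7a + siSfpq. The let-7a samples lay just below the control samples without overlap, while the other neighbours in the order of the 4 conditions, from let-7a + siSfpq at the lowest to siSfpq at the highest, overlapped. The difference between let-7a and control was -0.06 (SE 0.09, 95% confidence interval -0.25 to 0.14, adjusted p = 0.817), so that a fall by more than 0.25 lies outside the interval. The 3 probes of Nras gave -0.09, -0.01 and -0.07 for this difference. The difference between let-7a + siSfpq and siSfpq was -0.17 (interval -0.37 to 0.03, adjusted p = 0.245), and without replicate 3 it was -0.29 with an adjusted p of 0.00255. The dimmest of the 3 probes gave -0.39 for this difference and the others -0.06 each, and the brightest tested alone did not pass (adjusted p = 0.816). The difference between let-7a + siSfpq and control was also called without that replicate, at -0.19 (adjusted p = 0.0350).

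Hras, another GTPase of this family, was read by 2 probes that did not behave alike. The brighter probe was at 11.58, 11.45 and 11.40 in the control, at 11.49, 11.39 and 11.46 with let-7a, at 11.36, 11.30 and 11.28 with siSfpq and at 11.44, 11.20 and 11.26 with let-7a + siSfpq. The siSfpq samples of this probe lay below the control samples, and let-7a and control overlapped. The dimmer probe had a mean of 5.72 in the control, was at 4.70, 5.66 and 4.73 with let-7a and ranged from 4.75 to 6.65 over the 3 siSfpq samples. Its spread between replicates was larger than that of the brighter probe, with replicate 3 the highest in each condition.

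The mean of both Hras probes differed by -0.36 between let-7a and control (SE 0.24, adjusted p = 0.449), of which the brighter probe gave -0.03 and the dimmer -0.69. Without replicate 3 the mean was called at -0.44 (adjusted p = 0.0345). With siSfpq the mean differed by -0.14 (SE 0.24, interval -0.66 to 0.38), or by -0.40 without the siSfpq sample of replicate 3 (adjusted p = 0.173), and all neighbouring conditions overlapped in level. One more Hras probe was well above background on 1 of 16 arrays and was not used.

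**Figure D2:**
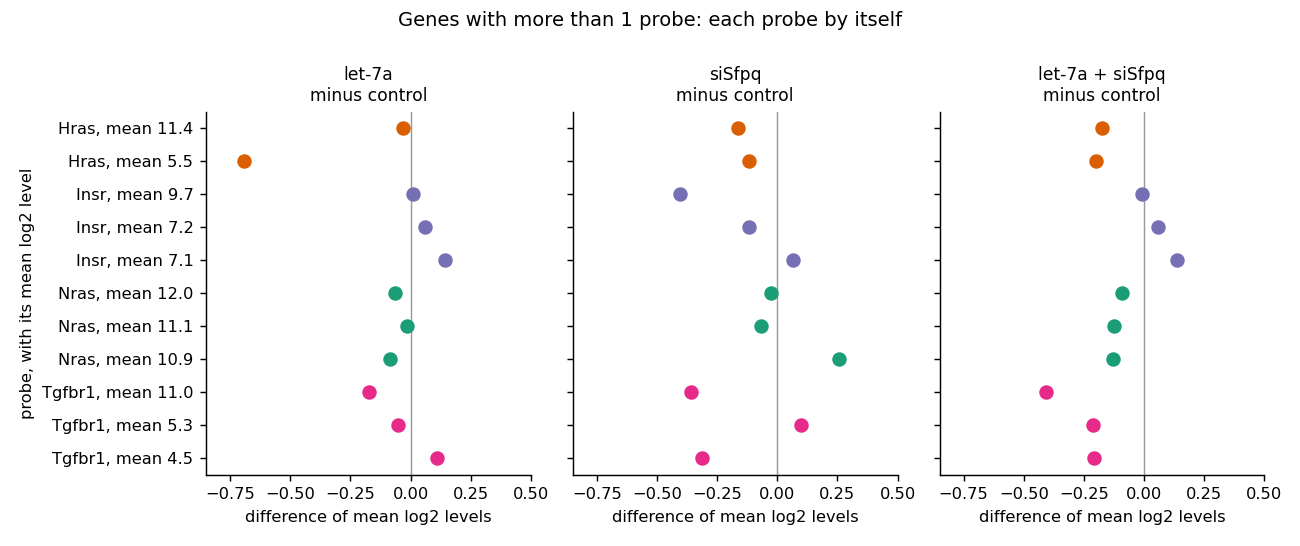
Difference of mean log2 level from control (x axis) for each probe kept of the 4 genes with more than 1 probe (y axis, with the mean log2 level of the probe), for let-7a, siSfpq and let-7a + siSfpq, 3 samples per condition. The 2 Hras probes lie at -0.03 and -0.69 with let-7a, whereas the 3 Nras probes lie within -0.09 and -0.01.

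Myc, a transcription factor that drives growth, ribosome synthesis and metabolism, was read by 1 probe at chr15:61821417-61821476 (mm9, the build of the file headers). Its level was 10.17, 10.47 and 10.08 in the control and 9.10, 9.75 and 9.10 with let-7a. It was 10.74, 10.46 and 10.65 with siSfpq and 9.94, 9.74 and 9.98 with let-7a + siSfpq. Every sample that received let-7a, with or without siSfpq, lay below every sample that did not. From the lowest, the order of the means was let-7a at 9.32 ± 0.38 (SD, n = 3), let-7a + siSfpq at 9.89 ± 0.13, control at 10.24 ± 0.21 and siSfpq at 10.62 ± 0.14, and the first pair and the last pair of neighbours overlapped.

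Myc fell by 0.92 with let-7a (SE 0.18, interval -1.32 to -0.53, adjusted p = 0.0112), to 52.8% of the control, with falls by 1.07, 0.72 and 0.98 in the 3 samples. In the presence of siSfpq it fell by 0.73 with let-7a (SE 0.18, interval -1.13 to -0.34, adjusted p = 0.0301), with falls by 0.80, 0.72 and 0.67. Both falls were called with the replicate as a block (adjusted p = 0.00536 and 0.0133) and with the slide as a block (0.0141 and 0.0332), and on the second slide alone they measured -0.85 and -0.70. Both calls were lost when replicates 1 and 2 (adjusted p = 0.353 and 0.508) or replicate 4 (0.337 and 0.558) were left out, with 2 samples per condition, and the second also without a filter on dim probes (0.0557). The difference between the falls, the interaction, was 0.19 (SE 0.26, interval -0.37 to 0.75, adjusted p = 0.960).

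The response of Myc to siSfpq itself was not called over 3 samples and differed between replicates. With siSfpq Myc was 0.38 above the control (SE 0.18, adjusted p = 0.177), with 0.58, -0.01 and 0.57 in the 3 samples. The level in let-7a + siSfpq was 0.57 above that in let-7a (SE 0.18, adjusted p = 0.122), with 0.84, -0.01 and 0.88. In both comparisons replicate 3 was the exception, and without it, on 2 samples per condition, they were called at 0.58 and 0.86 (adjusted p = 0.000290 and 0.000145). When only the siSfpq sample of replicate 3 was left out, the difference between siSfpq and control was 0.46 and was not called (adjusted p = 0.0987).

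Mycn, the Myc paralogue of embryonic and neural progenitor cells, was read by 1 probe at chr12:12943193-12943252 (mm9) and fell with siSfpq. It was at 11.96, 12.47 and 11.94 in the control and at 12.05, 12.44 and 11.97 with let-7a. It was at 9.92, 11.82 and 9.69 with siSfpq and at 11.18, 11.92 and 11.04 with let-7a + siSfpq. Both conditions with siSfpq lay below both conditions without it in every sample, and the siSfpq sample of replicate 3 lay about as high as the same replicate of let-7a + siSfpq.

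With siSfpq Mycn fell by 1.65 (SE 0.45, interval -2.64 to -0.65, adjusted p = 0.0361), to 32.0% of the control, with falls by 2.03, 0.66 and 2.25 in the 3 samples. The second slide alone gave -1.45. The call was lost with scaling to the 75th percentile, with a change of -1.59 and an adjusted p of 0.0524, and without a filter on dim probes, with an adjusted p of 0.0825. It was also lost when replicates 1 and 2 (0.490) or replicate 4 (0.535) were left out, and without the siSfpq sample of replicate 3 the change was -2.32 (adjusted p = 0.000128). With let-7a the difference was 0.03 (SE 0.45, interval -0.96 to 1.03, adjusted p = 0.984). In the blocked fit the interval was -0.58 to 0.64, and the 3 samples gave 0.09, -0.03 and 0.04. In let-7a + siSfpq Mycn was 0.74 below the control (difference -0.74, SE 0.45, adjusted p = 0.625) and 0.90 above siSfpq (SE 0.45, adjusted p = 0.219, and 0.0310 with the replicate as a block). The latter was 1.57 without the siSfpq sample of replicate 3 (adjusted p = 0.00138) and 1.30 without replicate 3 in all conditions (adjusted p = 4.21e-05). In the latter fit the difference between let-7a + siSfpq and control was called at -0.84 (adjusted p = 0.00112), and that between let-7a + siSfpq and let-7a at -0.90 (adjusted p = 0.000481). Sfpq was also 0.52 higher in let-7a + siSfpq than in siSfpq (adjusted p = 0.0994, and 0.0382 with the block, and 0.82 higher without the siSfpq sample of replicate 3), by 0.76, 0.03 and 0.79, beside 1.26, 0.10 and 1.35 for Mycn. The part of the weaker knockdown in this difference was not tested.

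**Figure D3:**
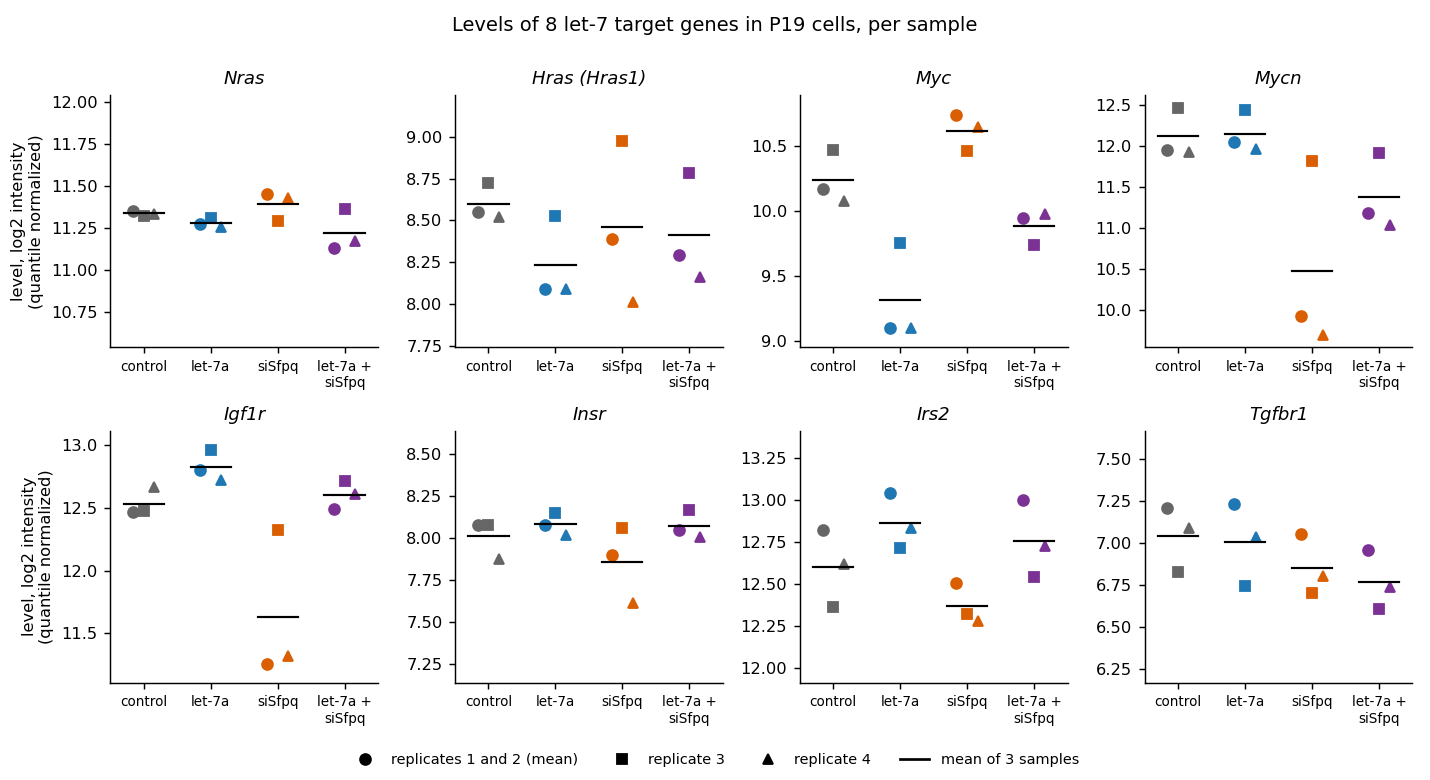
Level (y axis, log2 of the quantile normalized intensity) of the 8 tested genes in each sample of the 4 conditions (x axis), with 1 symbol for each replicate and lines at the means of 3 samples. Myc lies between 9.10 and 9.98 in the samples with let-7a and between 10.08 and 10.74 in those without it, and the siSfpq sample of replicate 3 stands above the other siSfpq samples in Mycn (11.82 against 9.92 and 9.69) and Igf1r.

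Igf1r, the receptor tyrosine kinase for the insulin-like growth factors, was read by 1 probe at chr7:75378461-75378520 (mm9). It was at 12.46, 12.48 and 12.66 in the control and at 12.80, 12.96 and 12.72 with let-7a. It was at 11.26, 12.32 and 11.32 with siSfpq and at 12.49, 12.71 and 12.61 with let-7a + siSfpq. The siSfpq samples lay below all others, those of control and let-7a + siSfpq overlapped, and the let-7a samples lay above both of these.

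Igf1r fell by 0.90 with siSfpq (SE 0.23, interval -1.39 to -0.41, adjusted p = 0.0260), with falls by 1.21, 0.15 and 1.34 in the 3 samples. With let-7a + siSfpq it was 0.97 higher than with siSfpq (SE 0.23, interval 0.48 to 1.46, adjusted p = 0.0243), by 1.23, 0.38 and 1.29, and the second slide alone gave -0.75 and 0.84. Sfpq was higher in let-7a + siSfpq than in siSfpq as well, as given above, and its part in this difference was not tested. Scaling to the 75th percentile lost both calls (adjusted p = 0.0619 and 0.0550), as did testing without a filter on dim probes (0.0577 and 0.0536). Both were also lost without replicates 1 and 2 and without replicate 4, with adjusted p of 0.466 and above, and both were called without the siSfpq sample of replicate 3, at -1.25 and 1.32. The difference between let-7a and control was 0.29 (SE 0.23, interval -0.20 to 0.79, adjusted p = 0.532), so that a fall by more than 0.20 lies outside the interval.

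The interaction of Igf1r was 0.68 (SE 0.32, interval -0.02 to 1.37, adjusted p = 0.801), with 0.90, -0.10 and 1.23 in the 3 samples. That of Mycn was 0.87 (SE 0.64, interval -0.54 to 2.28, adjusted p = 0.869). Without replicate 3 the interaction of Igf1r was 1.07 and that of Mycn was 1.24, with adjusted p = 0.00117 and 0.000991, and both were then called in a fit of 2 samples per condition.

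**Figure D4:**
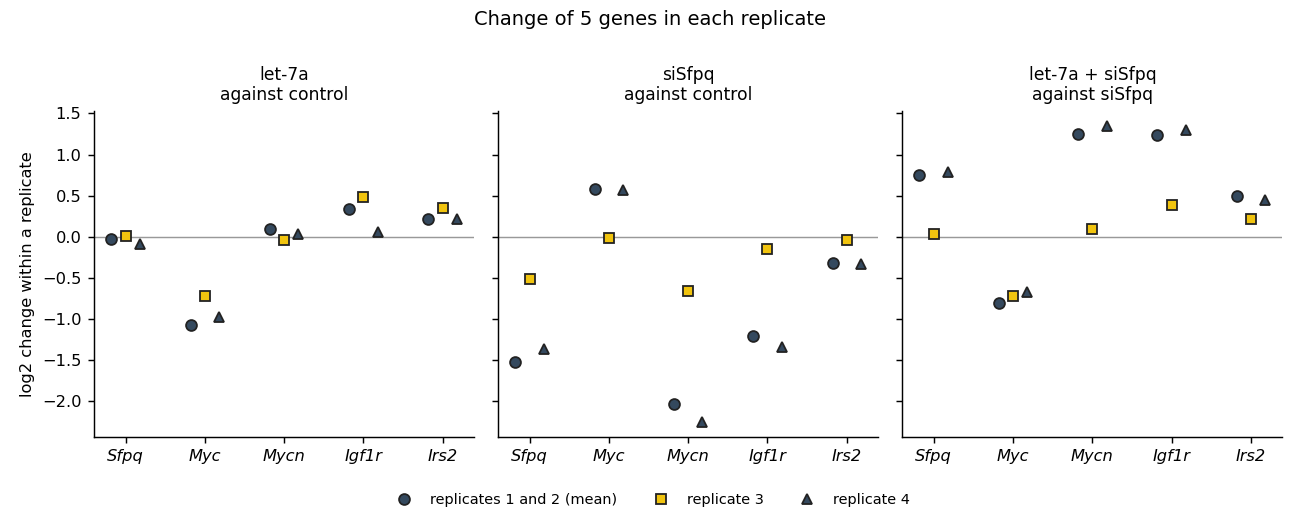
Log2 change within each replicate (y axis) of Sfpq and of 4 of the target genes (x axis) in 3 comparisons, with the mean of replicates 1 and 2 as 1 symbol. Myc is below 0 in each replicate of both comparisons of let-7a, while with siSfpq the changes of Sfpq, Mycn and Igf1r are smallest in replicate 3 (-0.52, -0.66 and -0.15).

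Insr, the insulin receptor, was read by 3 probes whose mean was at 8.08, 8.08 and 7.87 in the control and at 8.08, 8.15 and 8.01 with let-7a. It was at 7.90, 8.06 and 7.61 with siSfpq and 8.07 ± 0.08 (SD, n = 3) with let-7a + siSfpq. All neighbours in the order of the conditions, from siSfpq at the lowest to let-7a at the highest, overlapped. The difference between let-7a and control was 0.07 (SE 0.14, interval -0.23 to 0.38, adjusted p = 0.858) and that between siSfpq and control was -0.15 (SE 0.14, adjusted p = 0.503). The probes parted with siSfpq: the brightest gave -0.40, with 9.37, 9.78 and 9.11 against 9.84, 9.86 and 9.77 in the control, and the dimmer ones -0.12 and 0.06. Tested alone, the brightest probe did not pass (adjusted p = 0.125). Without the siSfpq sample of replicate 3 the mean of the probes gave -0.26 (adjusted p = 0.166).

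Irs2, the adaptor that links both receptors to phosphatidylinositol 3-kinase, was read by 1 probe at chr8:11004490-11004549 (mm9). It was at 12.82, 12.36 and 12.62 in the control and at 13.04, 12.72 and 12.83 with let-7a. It was at 12.51, 12.32 and 12.29 with siSfpq and at 13.00, 12.55 and 12.73 with let-7a + siSfpq. The conditions overlapped except for siSfpq and either condition with let-7a, while within each replicate both conditions with let-7a were above the control and siSfpq was below it.

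The difference of Irs2 between let-7a and control was 0.26 (SE 0.15, adjusted p = 0.352, and 0.0235 with the replicate as a block), by 0.22, 0.36 and 0.21 in the 3 samples. Between siSfpq and control it was -0.23 (SE 0.15, adjusted p = 0.320, and 0.0271 with the block). Between let-7a + siSfpq and siSfpq it was 0.39 (SE 0.15, adjusted p = 0.111, and 0.00534 with the block), which was also called with the slide as a block (0.0263). The last difference was called as well with arrays 1 and 2 as separate samples (0.41, adjusted p = 0.0195) and without replicate 3 (0.47, adjusted p = 0.0205), and without the siSfpq sample of replicate 3 it was 0.36 (adjusted p = 0.128). Scaling to the 75th percentile brought it to 0.23 (adjusted p = 0.236), and the difference between siSfpq and control to -0.08 (adjusted p = 0.716). In every sample the level of Irs2 with let-7a was higher, not lower, than in the control of the same replicate.

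Tgfbr1, the type I receptor of TGF-beta, was read by 3 usable probes of unlike brightness, the dimmest of them well above background on 13 of 16 arrays. Their mean was at 7.21, 6.83 and 7.09 in the control and at 7.23, 6.75 and 7.04 with let-7a. It was at 7.06, 6.70 and 6.81 with siSfpq and at 6.96, 6.61 and 6.74 with let-7a + siSfpq. All conditions overlapped with their neighbours in the order from let-7a + siSfpq at the lowest to control at the highest, and replicate 3 was the lowest in each condition. The largest difference from control was -0.28, in let-7a + siSfpq (SE 0.18, adjusted p = 0.666), and with let-7a it was -0.04 (SE 0.18, interval -0.44 to 0.36, adjusted p = 0.948), or -0.11 with the stricter filter, which leaves out the dimmest probe (adjusted p = 0.773).

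The brightest Tgfbr1 probe was at 11.07, 11.29 and 11.26 in the control and at 10.93, 11.12 and 11.05 with let-7a. It was at 10.60, 11.16 and 10.79 with siSfpq and at 10.58, 11.05 and 10.77 with let-7a + siSfpq. In each replicate the control was the highest of the 4 conditions for this probe. Tested alone it differed from control by -0.17 with let-7a, -0.36 with siSfpq and -0.41 with both (adjusted p = 0.627, 0.149 and 0.307). A further Tgfbr1 probe was well above background on 0 of 16 arrays, and so were both probes of Acvr1c, a type I receptor for activin and Nodal, for which no level or change is given.

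The pathways around these genes were described through lists of other genes chosen with earlier results of these data known, so that their counts are descriptions, to be read beside the shares of all genes given above for the same fit. Of 18 targets of Myc, mostly genes of ribosome synthesis, metabolism and the cell cycle, 7 fell and 0 rose with let-7a, with a median of -0.41 over the list. The largest falls were those of Srm, spermidine synthase, by 0.80 (SE 0.17), of Pa2g4, a growth regulator of the nucleolus, by 0.66 (SE 0.14), and of Ncl, nucleolin, by 0.61 (SE 0.15), with adjusted p = 0.0148, 0.0188 and 0.0360. With let-7a + siSfpq against siSfpq 6 of 18 fell and 0 rose (median -0.37), led by Srm with a fall by 0.94 and Cad, an enzyme of pyrimidine synthesis, with a fall by 0.80.

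With the replicate as a block these counts were 10 falls with let-7a (21.7% of all genes in either direction), and 11 falls and 2 rises with let-7a + siSfpq against siSfpq (33.4%). With siSfpq 3 of the 18 Myc targets rose and 1 fell (median 0.16), among them Srm with 0.60 and Cdk4, a cell cycle kinase, with -0.39 (6 and 2 with the block, beside 37.8% of all genes). Without replicate 3 there were 13 falls and 0 rises with let-7a and 13 falls and 2 rises with let-7a + siSfpq against siSfpq, and with siSfpq 8 rose and 3 fell, in a fit that called 30.2%, 47.3% and 49.3% of all genes in either direction in these comparisons. The median over all genes was -0.04 with let-7a, 0.01 with siSfpq and -0.02 with let-7a + siSfpq against siSfpq.

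Of 13 genes of the Myc network, partners and regulators of Myc, 1 rose with let-7a: Mxd4, a Max partner that opposes Myc, by 0.68 (SE 0.17, adjusted p = 0.0354). Mxd4 also rose by 0.68 with let-7a + siSfpq against siSfpq (adjusted p = 0.0332), where Aurka, a mitotic kinase, fell by 0.61. With siSfpq Mlx rose by 0.52 and Fbxw7, a ubiquitin ligase subunit that marks Myc for degradation, fell by 0.30. With the block there were 2 rises and 0 falls with let-7a, 3 of each with siSfpq, and 2 rises and 1 fall with let-7a + siSfpq against siSfpq (21.7%, 37.8% and 33.4% of all genes). Without replicate 3 there were 3 rises and 2 falls with let-7a, 4 rises and 3 falls with siSfpq, and 3 rises and 2 falls with let-7a + siSfpq against siSfpq (30.2%, 49.3% and 47.3% of all genes).

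Of 20 further genes of the Ras and MAP kinase pathway, 2 rose and 0 fell with let-7a. These were Rasgrf1, an exchange factor for Ras, by 2.01 (SE 0.42, adjusted p = 0.0152), and the adaptor Shc1, by 0.48 (SE 0.12, adjusted p = 0.0351). Both also rose with let-7a + siSfpq against siSfpq, by 1.48 and 0.58 (adjusted p = 0.0460 and 0.0179). With siSfpq 1 gene of this list, the adaptor Grb2, fell by 0.61 (adjusted p = 0.0399) and 0 rose. The block raised the counts to 3 rises and 2 falls with let-7a, to 2 rises and 7 falls with siSfpq, and to 5 of each with let-7a + siSfpq against siSfpq, where it called 21.7%, 37.8% and 33.4% of all genes. Without replicate 3 they were 5 rises and 3 falls with let-7a, 3 rises and 7 falls with siSfpq, and 7 rises and 6 falls with let-7a + siSfpq against siSfpq, where 30.2%, 49.3% and 47.3% of all genes were called.

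Of 28 further genes of insulin and IGF signalling, 2 rose and 0 fell with let-7a, Igfbp5, an IGF-binding protein, by 1.86 and Pik3r1, a regulatory subunit of phosphatidylinositol 3-kinase, by 1.14 (SE 0.30 and 0.19, adjusted p = 0.00439 and 0.00456). With siSfpq, where Igf1r fell, 5 of 28 fell and 2 rose, led by the IGF-binding proteins Igfbp4 and Igfbp2, which fell by 1.22 and 0.97 (adjusted p = 0.0189 and 0.00886), and by Pik3cb, a catalytic subunit of the kinase, which rose by 0.83 (adjusted p = 0.0152). With let-7a + siSfpq against siSfpq 4 rose and 1 fell, among them Igfbp5 with 1.48 and Igfbp2 with 0.97. With the block 4 rose and 1 fell with let-7a, 7 rose and 7 fell with siSfpq, and 7 rose and 5 fell with let-7a + siSfpq against siSfpq, beside 21.7%, 37.8% and 33.4% of all genes. Without replicate 3 it was 6 and 4 for let-7a, 7 and 9 for siSfpq, and 10 and 5 for the last comparison, beside 30.2%, 49.3% and 47.3% of all genes.

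Of 32 further genes of TGF-beta and activin signalling, 2 fell and 0 rose with let-7a, with 27 of 32 below 0 and a median of -0.22, where 55.9% of all genes were below 0 with a median of -0.04. They were Nodal, the ligand that maintains the pluripotent epiblast, which fell by 1.22 (SE 0.24, adjusted p = 0.0114), and the co-receptor Tgfbr3, which fell by 0.73 (SE 0.15, adjusted p = 0.0160). With siSfpq the ligand genes Inhbb and Gdf1 rose by 1.27 and 0.85 (adjusted p = 0.0434 and 0.0447), and with let-7a + siSfpq against let-7a Tgfbr3 rose by 0.72 (adjusted p = 0.0301). Against siSfpq, let-7a + siSfpq had 0 of 32 called by limma (9 at an unadjusted p under 0.05, as had 5144 of 18246 genes, a like share). The block gave 7 falls and 1 rise with let-7a (21.7% of all genes in either direction), 8 falls and 5 rises with siSfpq (37.8%), and 5 falls and 4 rises with let-7a + siSfpq against siSfpq (33.4%). Without replicate 3 there were 12 falls and 1 rise with let-7a (30.2%), 10 falls and 7 rises with siSfpq (49.3%), and 7 falls and 8 rises with let-7a + siSfpq against siSfpq (47.3%).

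For comparison, 19 other known let-7 targets were taken, of oncofetal and cell cycle genes and of others. Of these Ccnd2 is also on the list of Myc targets, and Lin28a is also among the markers of embryonal carcinoma cells. With let-7a 5 of 19 fell and 1 rose (median -0.39), beside 1 and 0 of the 8 Ras, Myc and receptor genes (median -0.0042). Hmga2, a chromatin protein of embryonic cells, fell by 1.40 (SE 0.28), and Lin28a, an RNA-binding protein that blocks let-7 maturation, fell by 0.77 (SE 0.11), with adjusted p = 0.0116 and 0.00251. With let-7a + siSfpq against siSfpq 8 of 19 fell (median -0.31), led by the cyclin gene Ccnd1 with a fall by 1.59, Hmga2 by 1.50 and Cdk6 by 1.24. With siSfpq against control 3 of 19 rose and 1 fell, where 6.30% and 7.36% of all genes did. With let-7a + siSfpq against control 3 of 19 fell and 0 rose, where 0.247% and 1.30% of all genes did. With the block 9 of 19 fell and 3 rose with let-7a, and 11 fell and 1 rose with let-7a + siSfpq against siSfpq (21.7% and 33.4% of all genes in either direction). Without replicate 3 there were 11 falls and 3 rises with let-7a, and 12 falls and 1 rise with let-7a + siSfpq against siSfpq, where 30.2% and 47.3% of all genes were called in either direction. The difference between the lists was not tested.

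**Figure D5:**
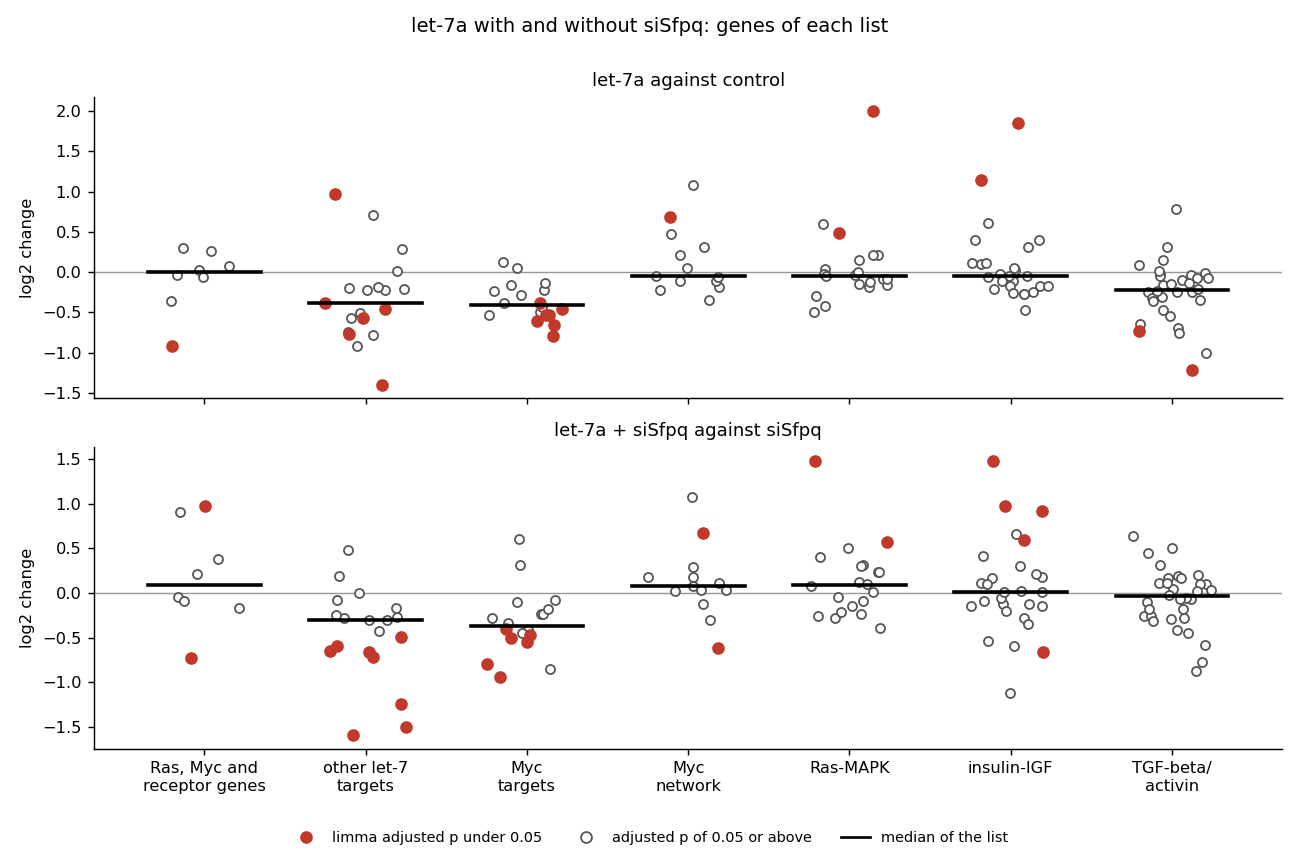
Log2 change (y axis) of each gene of the 7 lists (x axis) with let-7a against control (top) and with let-7a + siSfpq against siSfpq (bottom), with lines at the list medians and filled points for an adjusted p under 0.05. Myc is the lowest point of the Ras, Myc and receptor genes in both, and the medians of the other let-7 targets (-0.39 and -0.31) and of the Myc targets (-0.41 and -0.37) lie below 0.

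As a description of the patterns, the gene of the array whose level followed each target most closely over the 12 samples was found by Pearson correlation, over samples that share conditions, replicates and slides. For Myc it was Alkbh2 (r = 0.995), for Mycn Ddah1 (r = 0.995), and for Igf1r Atp2c1 (r = 0.985). For Irs2 it was Stard3 (r = 0.965), for Hras Mipep (r = 0.956), for Nras Cab39l (r = 0.954), for Tgfbr1 Trappc9 (r = 0.952) and for Insr 1810010H24Rik (r = 0.948). Each value is the highest among 18246 genes.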

How the data were processed

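The authors hybridized Cy3-labelled RNA to 1-colour Agilent arrays and deposited the scanner intensities of each spot, which per the file headers came from Feature Extraction 10.7.3.1 with background subtracted and no normalization between arrays. A second deposited table holds the log2 values of the authors, quantile normalized with limma per the methods, and its values follow the median spot intensity without background subtraction. For this report the processed intensity was taken as log2 and the 16 arrays were quantile normalized. Outlier spots were left out, and so were probes that no condition showed well above background on each of its 4 arrays. Probes named by a region only or without a gene name were left out, and the probes of a gene were averaged. Names came from RefSeq accessions where possible. Arrays 1 and 2 were averaged in each condition. The 4 conditions were fitted with limma 3.58.1 in R 4.3.3 (lmFit, eBayes with trend), p-values were two-sided and adjusted over 18246 genes by Benjamini-Hochberg, and called at 0.05. The fit was tested on simulated data.

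Members and lists were chosen with earlier results of these data known. All 9 members are named, together with at most the 3 genes with the largest changes among the called genes of a list, and the 1 gene nearest in pattern to each member. One gene that this rule names is not reported here. The replicate numbers of the labels were taken as pairs for the changes within a replicate and for the block. Deviations of same-numbered samples correlated at 0.28 to 0.71 in all pairs of conditions. The main fit, with its p-values and calls, did not use these pairs. The methods name 3 replicates where 4 arrays per condition were deposited. Results were recomputed with the 75th percentile as the scale, with normexp (offset of 50), with a stricter filter or none, and with arrays 1 and 2 as separate samples, the replicate or the slide as a block, without each replicate, with the brightest probe and with the deposited log2 table. Leaving out the siSfpq sample of replicate 3, and list counts without replicate 3, were added after seeing the data. Precision is limited by the number of samples.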

Additional observations from a re-analysis of the deposited data

How the results depend on the processing

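The fall of Myc with let-7a was called under every setting but the fits without arrays 1 and 2 and without replicate 4, where 3 genes or fewer of the whole array were called. Leaving out 1 replicate in turn gave between 0 and 2 called members with let-7a, 0 and 3 with siSfpq, 0 and 2 with let-7a + siSfpq against control, 0 and 2 against let-7a, 0 and 5 against siSfpq, and 0 and 2 in the interaction, in each case highest without replicate 3, the choice that the study's log ratios follow. Mycn and Igf1r were the 2 then called in the interaction. With the replicate as a block the counts were 2 with let-7a, 4 with let-7a + siSfpq against siSfpq, and unchanged within 1 gene elsewhere. With scaling to the 75th percentile they were 0 with siSfpq and 1 with let-7a + siSfpq against siSfpq, where 2806 and 2274 genes of the array were called against 2491 and 1887 before, and without a filter on dim probes 0 and 0 (1500 and 1039 genes). With arrays 1 and 2 as separate samples they were 3 with siSfpq, 1 with let-7a + siSfpq against let-7a and 5 against siSfpq (6572, 2590 and 5919 genes). The cause of these shifts was not tested. Over the array, the genes called with let-7a numbered 1276, against 5506 without replicate 3, 3964 with the block and 2 without replicate 4.

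Only changes that were not called turned sign. With let-7a these were Mycn (-0.046, 75th percentile), Hras (0.012) and Tgfbr1 (0.094), both without a filter, and Insr (-0.00066) and Tgfbr1 (0.021), both on the first slide alone. With siSfpq these were Nras (-0.027, brightest probe) and Hras (0.042 without replicate 4). Without only the siSfpq sample of replicate 3, Hras with siSfpq moved to -0.40 and kept its sign. With let-7a + siSfpq they were Insr (-0.0089, brightest probe, and -0.030, first slide alone) and Igf1r (-0.011 to 0.13, leaving out 1 replicate) against control, Hras (-0.19, no filter, and -0.14, brightest probe) and Insr (-0.020 to 0.0030, leaving out 1 replicate, the latter also the second slide alone) against let-7a, and Hras (-0.14 without replicate 4, 0.025 without replicate 3 and 0.21 without only the siSfpq sample of replicate 3) against siSfpq. In the interaction they were Tgfbr1 (0.0044, 75th percentile, and 0.12, brightest probe), Hras (-0.14, no filter) and Nras (0.0032, brightest probe).

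The number of samples limits what can be seen: Mycn with let-7a had an interval of -0.96 to 1.03, or -0.58 to 0.64 with the replicate block, and Acvr1c gave no level. Condition and row on the slide cannot be told apart.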
